A study of Gallus gallus with 24 samples.

Results

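PPARG, CEBPA and CD36 were followed in abdominal fat of growing chickens: 2 transcription factors that drive the formation of adipocytes, and a membrane receptor through which fat cells take up fatty acids. Every spot whose platform symbol was one of these names was taken, whatever its values. The genes themselves were chosen with earlier results of these data known. They were 3 of the 6428 named genes on the array and stood at 5 of its 19200 spots. PPARG had 1 spot (array block 2), CEBPA had 2 (blocks 16 and 20) and CD36 had 2 (blocks 19 and 26). Spots of 1 gene may hold different cDNA clones, so they are given one by one.

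The birds were fed cockerels of a high-growth (HG) and a low-growth (LG) line, bred apart on body weight from the same Bresse-Pile stock. Each of 24 2-colour arrays set the fat RNA of 1 HG bird against that of 1 LG bird of the same age, with 4 arrays at each of 6 ages, every 2 wk from 1 to 11 wk, and a separate bird in each channel (48 in all). On replicates 1 and 3 of an age the LG bird carried the red dye and on replicates 2 and 4 the HG bird did. Per the study's methods the lines were housed apart for their first 3 wk, when the LG chicks also had their pellets crushed, so that at 1 and 3 wk genotype, housing and feed form cannot be told apart. Since the birds on an array were of 1 age, a ratio shows how the lines differed at that age and not how a gene changed as the birds grew.

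PPARG is a nuclear receptor that binds fatty acid ligands together with an RXR partner and switches on the genes of the mature fat cell. C/EBP alpha, the product of CEBPA, is induced alongside it during differentiation, and in cultured mammalian preadipocytes each factor helps to maintain the other. CD36 (fatty acid translocase) binds long-chain fatty acids at the cell surface. In mammals it is a target gene of PPARG and is also made by endothelial cells, macrophages and platelets. Chicken fat cells receive much of their fatty acid from the liver, which is the main site of lipogenesis in birds, so uptake is a central step of fat deposition in this species.

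Every value below is a log2 ratio of HG over LG, relative to the median spot of its array. Values above 0 mean more of the transcript in HG. The direction of the deposited ratios is likely rather than certain. With the sign used here SCD, the desaturase that the study describes as higher in HG, was higher in HG on 24 of 24 arrays (log2 1.14). Arrays held 17380 to 18529 measured spots, their medians before centring lay between -0.336 and 0.32, and no intensities were used, so precision rests on the number of arrays. In limma, 418 of 16895 tested spots passed an adjusted p of 0.05 for the genotype effect over the 6 ages (2.47%). Of the member spots 4 of 5 could be tested, and 0 of these 4 passed for that effect, at any age, for the interaction of genotype and age, or for a linear trend with age. The shares of all spots that passed were 0% at 1 wk, 0% at 3 wk, 0.249% at 5 wk, 0.225% at 7 wk, 0.112% at 9 wk and 0.107% at 11 wk. For the interaction and for the trend it was 0%, with 769 spots under an unadjusted p of 0.05 for the interaction. In whole tissue, fewer cells of a type and less RNA per cell cannot be told apart.

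PPARG differed little between the lines over the whole period but stood on opposite sides of 0 at neighbouring ages. At 1 wk the ratios on replicates 1 to 4 were -0.533, 0.862, -0.512 and 0.233, and at 3 wk they were -0.145, 0.506, -0.253 and 0.21. At both ages the arrays with HG in red were positive and those with LG in red negative, and the means lay near 0. At 5 wk the values were -0.916, -0.291, -0.218 and -0.345, so that HG was lower on 4 of 4 arrays. At 7 wk they were 0.266, 0.681, 0.369 and 0.475, and at 9 wk 0.998, 0.114, 0.571 and 1.478. HG was higher on 4 of 4 arrays at both ages, in either dye orientation, and none of these 8 values overlapped with those of 5 wk. These counts were made before the dye coefficient was removed. With it removed, replicate 2 of 9 wk was at -0.049. At 11 wk the ratios were 0.406, 0.002, -0.327 and -0.296, again on both sides of 0.

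In the fit, the PPARG difference was -0.44 ± 0.29 (SD, n = 4) at 5 wk, 0.45 ± 0.10 (SD, n = 4) at 7 wk and 0.79 ± 0.61 (SD, n = 4) at 9 wk. The last is a ratio of 1.73-fold with a 95% confidence interval of 1.29-fold to 2.31-fold. None of these passed after correction over all spots, with limma's adjusted p = 0.711 at 5 wk, 0.655 at 7 wk and 0.196 at 9 wk. At 9 wk the call turned on 1 array. Without replicate 2, where the ratio was 0.114, the difference was 1.09 with limma's adjusted p = 0.0176. That array had the lowest estimated weight of all arrays (0.402), but PPARG at 9 wk did not pass in the fit with array weights, which kept it. The arrays of 9 wk had the widest spread of ratios in the series (median absolute deviation 0.593 to 0.756). With arrays scaled to equal spread the difference at 9 wk was 0.591 and did not pass. Over the 6 ages PPARG was at 0.14 (SE 0.08, 95% confidence interval -0.03 to 0.31, adjusted p = 0.55), with HG higher on 14 of 24 arrays. The F test of the interaction gave the lowest value of the 4 tested member spots, with an unadjusted p of 0.0065 by limma, but an adjusted p = 0.814.

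**Figure D1:**
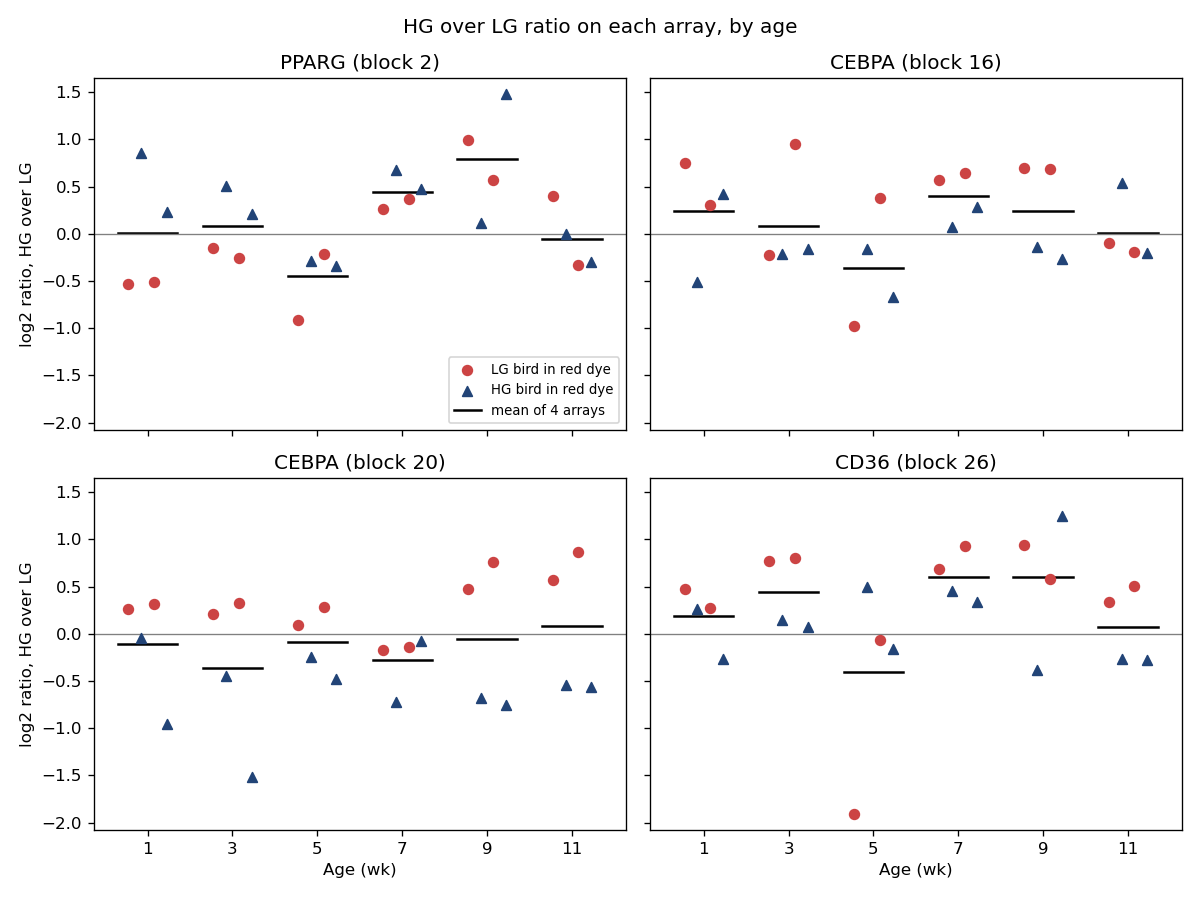
Log2 ratio of HG over LG (y axis) against age in wk (x axis) for the 4 tested spots, 1 point per array, with circles where the LG bird carried the red dye, triangles where the HG bird did, and a bar at the mean of the 4 arrays of an age. All PPARG points lie below 0 at 5 wk and above 0 at 7 and 9 wk, the block 20 spot of CEBPA splits by dye, and CD36 has a single point at -1.91 at 5 wk.

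Chosen after the values were seen, the differences between the ages on either side of that turn were taken from the same fit. PPARG was higher relative to LG at 7 wk than at 5 wk by 0.89 (95% confidence interval 0.30 to 1.48, adjusted p = 0.451), and at 9 wk than at 5 wk by 1.23 (0.64 to 1.82, adjusted p = 0.244). Both contrasts passed for 0% of all spots. Without replicate 2 of 9 wk the second was 1.53 (adjusted p = 0.0406). HG was lower on 4 of 4 arrays at 5 wk for 6.02% of all spots with 4 values, and higher on 4 of 4 for 5.71% at 7 wk and 4.59% at 9 wk. The joint pattern seen for PPARG held for 6 of the 15742 spots with every value at these ages (0.0381%). The pattern was picked after the values were seen, so that share is a description and not a test. It was also counted before the dye coefficient was removed. After that removal replicate 2 of 9 wk was below 0 for PPARG (-0.049).

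For CEBPA the 2 spots gave different accounts. On the block 16 spot the ratios of replicates 1 to 4 were 0.752, -0.51, 0.31 and 0.42 at 1 wk and -0.227, -0.213, 0.951 and -0.158 at 3 wk. At 5 wk they were -0.974, -0.165, 0.379 and -0.673. At 7 wk all 4 arrays were above 0, at 0.576, 0.077, 0.648 and 0.29. The arrays of 9 wk divided by dye, with 0.702 and 0.684 where LG was red against -0.138 and -0.263 where HG was red, and at 11 wk the values were -0.101, 0.54, -0.194 and -0.201. Only at 7 wk did the 4 arrays of this spot share a sign.

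The fitted difference on block 16 was -0.36 ± 0.61 (SD, n = 4) at 5 wk and 0.40 ± 0.10 (SD, n = 4) at 7 wk (limma, adjusted p = 0.988 and 0.887). Without replicate 1 of 5 wk the former was -0.0748. At the other 4 ages it lay between 0.01 and 0.25, and over the 6 ages it was 0.10 (SE 0.09, 95% confidence interval -0.08 to 0.29, adjusted p = 0.7), with HG higher on 12 of 24 arrays. The interval covers a ratio of up to 1.22-fold in favour of HG. The step from 5 to 7 wk was 0.76 (0.11 to 1.41, adjusted p = 0.743), and without replicate 1 of 5 wk it was 0.473 (adjusted p = 1).

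On the block 20 spot the value followed the dye more than the line. Where LG was red the ratio averaged 0.32 ± 0.32 (SD, n = 12), from -0.168 to 0.872, and HG was higher on 10 of 12 arrays. Where HG was red it averaged -0.59 ± 0.40 (SD, n = 12), from -1.522 to -0.047, and HG was higher on 0 of 12. Within an age the 2 orientations overlapped only at 7 wk, where the LG-red arrays were at -0.168 and -0.144 and the HG-red ones at -0.721 and -0.076. Relative to the median spot, the green channel was the stronger one on 22 of 24 arrays, and the dye coefficient was -0.45 (SE 0.07, adjusted p = 6.82e-05). Such a coefficient passed for 49.1% of all spots. Those of the other 3 tested spots, 0.16 for PPARG, -0.19 for CEBPA block 16 and -0.11 for CD36 block 26, did not pass (adjusted p from 0.0911 to 0.451).

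**Figure D2:**
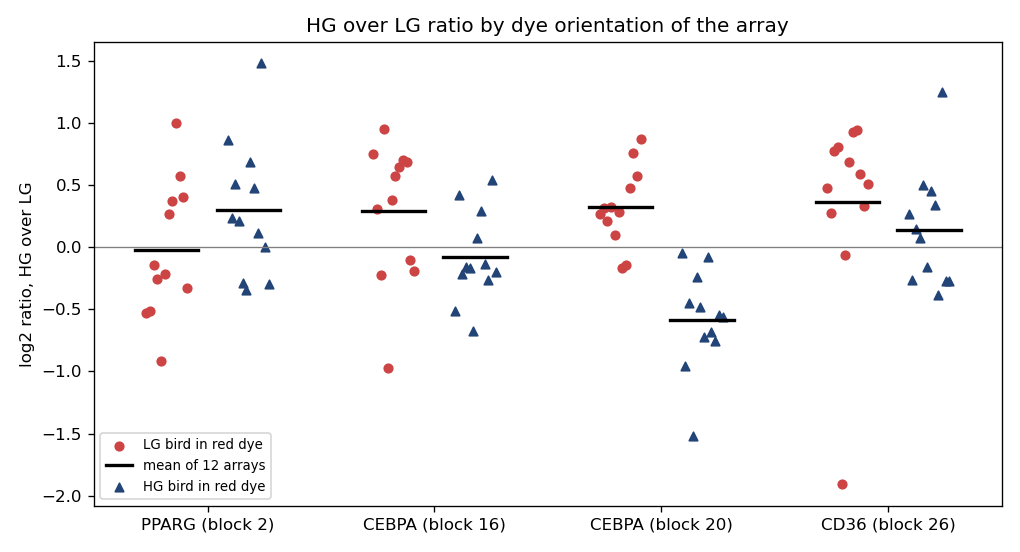
Log2 ratio of HG over LG (y axis) for the 4 tested spots (x axis), divided by the dye orientation of the array, with 1 point per array, 12 in each set, and a bar at the mean. For CEBPA block 20 the means are 0.32 with LG in red and -0.59 with HG in red, while the sets overlap widely for the other spots.

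With the dye balanced within each age, CEBPA block 20 was at -0.13 over the 6 ages (SE 0.07, 95% confidence interval -0.29 to 0.02, adjusted p = 0.53), and its differences by age ran from -0.36 at 3 wk to 0.08 at 11 wk. Without replicate 4 of 3 wk the difference at that age was -0.108. At 7 wk block 16 was higher in HG on 4 of 4 arrays and block 20 was lower on 4 of 4. Those counts were made before the dye coefficient was removed. Counted so, a value lower on 4 of 4 arrays at that age occurred for 5.11% of all spots. The fitted difference on block 20 was -0.28 ± 0.47 (SD, n = 4). With the dye coefficient removed, its replicates 1 to 4 were at -0.622, -0.267, -0.598 and 0.378, so that replicate 4 lay above 0. The within-array difference of block 16 over block 20 was 0.24 ± 0.66 (SD, n = 24), positive on 16 of 24 arrays (two-sided sign-flip permutation test, p = 0.0925, adjusted p = 0.185 over the 2 spot pairs tested). Over the arrays, with the dye coefficient removed, the 2 spots had a Pearson r of -0.09. Low values are common for spots of 1 gene in these data: over 4720 such pairs the median r was 0.04, and 33.5% of pairs lay at or below the CEBPA pair. PPARG and CD36 had 1 tested spot each, so agreement between tested spots could not be checked for them. The mean of the 2 CEBPA spots was at -0.01 (95% confidence interval -0.14 to 0.11, adjusted p = 0.949).

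CD36, the fatty acid receptor, had the largest ratio of the 4 tested member spots over the whole period, and whether it passed rested on 1 array. On the block 26 spot the ratios of replicates 1 to 4 were 0.478, 0.265, 0.274 and -0.267 at 1 wk and 0.771, 0.144, 0.803 and 0.073 at 3 wk. At 7 wk they were 0.685, 0.454, 0.929 and 0.342. All 4 arrays were above 0 at 3 and at 7 wk, which was the case for 3.81% and 5.71% of all spots. At 9 wk the values were 0.946, -0.386, 0.585 and 1.251, and at 11 wk they were 0.334, -0.269, 0.505 and -0.273. At 5 wk they were -1.91, 0.499, -0.064 and -0.162. Replicate 1 of 5 wk was the lowest of the 24 arrays for CD36, and also for PPARG (-0.916) and for CEBPA block 16 (-0.974), but not for CEBPA block 20 (0.096).

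Over the 6 ages CD36 was 1.19-fold higher in HG (log2 0.25, SE 0.12, 95% confidence interval 0.01 to 0.49), with HG higher on 17 of 24 arrays. The unadjusted p was 0.0441 and limma's adjusted p = 0.39. Without replicate 1 of 5 wk the effect was 0.345 (adjusted p = 0.0168), and without all arrays of 5 wk it was 0.382 (adjusted p = 0.0144), so the call depends on that array. The difference at 5 wk itself, -0.41 ± 1.13 (SD, n = 4), turned to 0.16 without it. By age the largest differences were 0.60 ± 0.15 (SD, n = 4) at 7 wk and 0.60 ± 0.69 (SD, n = 4) at 9 wk, each a ratio of 1.52-fold, with adjusted p = 0.709 and 0.638. Neither passed without replicate 1 of 5 wk either (adjusted p = 0.212 and 0.296). The difference at 9 wk was 0.33 without replicate 4 of that age and 0.907 without its replicate 2 (adjusted p = 0.987 and 0.219). With arrays scaled to equal spread it was 0.453. The step from 5 to 7 wk was 1.01 with all arrays and 0.443 without that array of 5 wk (adjusted p = 0.71 and 1).

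**Figure D3:**
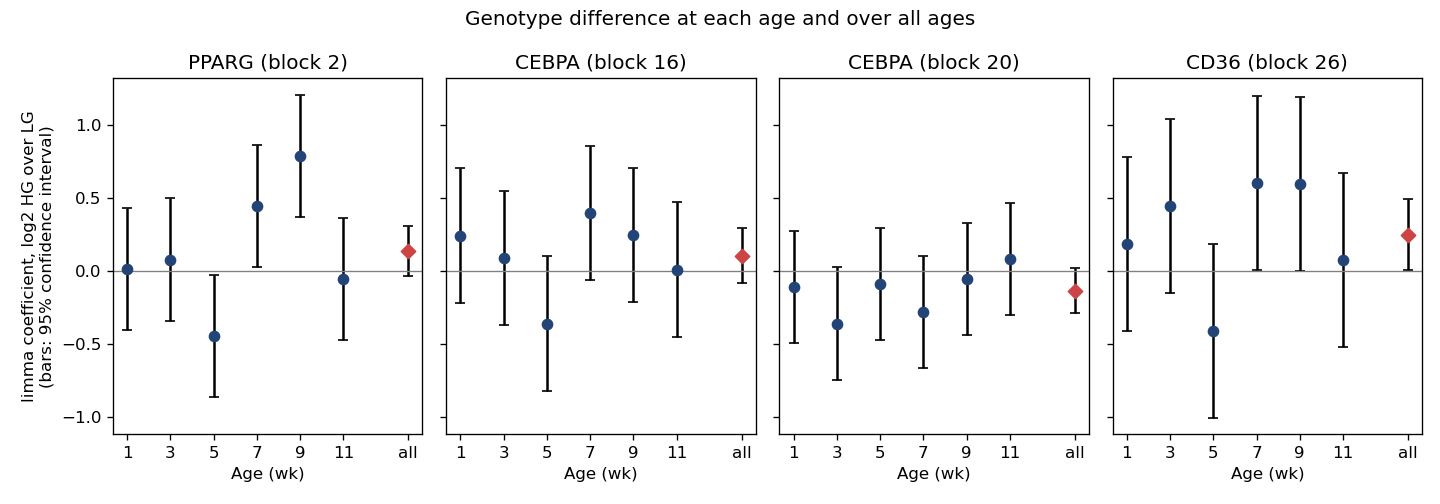
Genotype difference in log2 HG over LG from limma (y axis) at each age in wk (x axis, circles) and over all ages (diamond) for the 4 tested spots, with bars for the 95% confidence interval. The largest difference is 0.79 for PPARG at 9 wk, and the diamonds lie between -0.13 for CEBPA block 20 and 0.25 for CD36.

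The other CD36 spot, in block 19, was too sparse to test. It had a ratio on 12 of 24 arrays, no ratio on 10, and on 2 a ceiling value in place of a ratio. At one age it was left with 1 array. Of its 12 ratios, 9 (75%) equalled a ratio of whole numbers up to 12 when both were rounded to 3 decimals of the log2 value, against 8.11% of all values in the series and at most 2 of 24 arrays for any other member spot. The values ran from -2.767 to 4.038 with a median of 0.71, and HG was higher on 10 of the 12. The only ratios with LG in red were 0.807 at 1 wk, -1.751 at 7 wk and 0.035 at 9 wk. All others had HG in red and no dye coefficient was fitted, so line and dye can hardly be told apart for this spot. On its 12 arrays block 19 differed from block 26 by 0.46 ± 1.98 (SD, n = 12; two-sided exact sign-flip permutation test, p = 0.432, adjusted p = 0.432 over the same 2 pairs). That test took no account of the unbalanced dye. No CD36 value below rests on this spot.

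PPARG and CD36 varied together over the arrays. With the dye coefficient removed, Pearson's r was 0.649 and Spearman's rho 0.558 over 24 arrays (permutation tests with 100000 resamples, p = 0.00035 and 0.00546, adjusted over 6 relations among the 4 spots p = 0.0021 and 0.0328). The permutations, here and below, moved values freely across ages. Their p-values therefore also take in differences between ages that the spots share. Without the 2 arrays farthest from the PPARG median, both of 9 wk, r was 0.545, and without replicate 1 of 5 wk it was 0.631. Within an age, over 4 arrays each, r was positive at 5 of 6 ages (from -0.654 to 0.975). With the age means removed r was 0.476, a value that was not tested. Before that removal it was 0.629 on the 12 arrays with LG in red and 0.731 on the 12 with HG in red. Both spots of an array were read from the same RNA sample in each channel, so tissue composition and sample quality enter both alike. Their part was not tested.

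**Figure D4:**
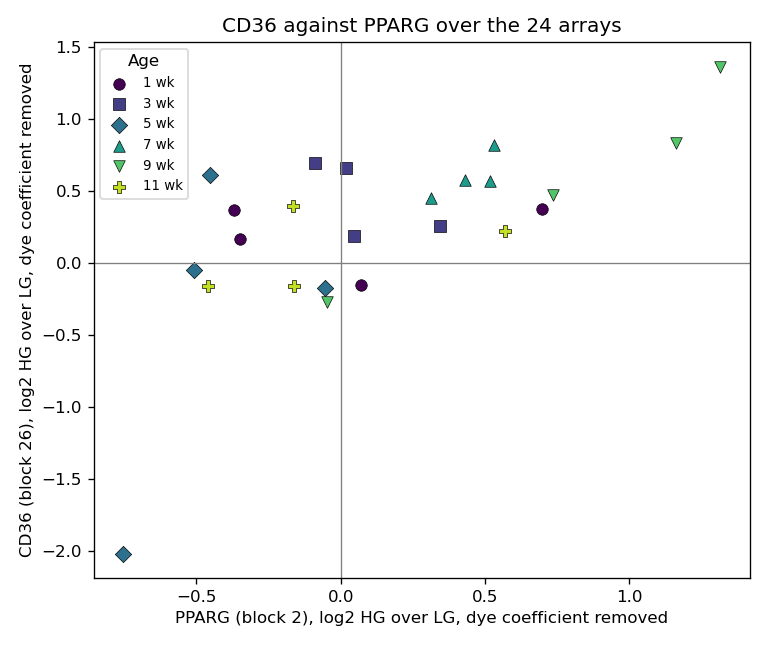
Log2 HG over LG of CD36 block 26 (y axis) against PPARG (x axis) on the 24 arrays, with the dye coefficient removed and a symbol for each age. The arrays of 7 wk lie together at the upper right, 3 of the 4 arrays of 9 wk extend it, and 1 array of 5 wk stands far below the rest.

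CEBPA did not show such a relation with either gene. Block 16 had an r of 0.281 with PPARG (rho 0.197, permutation p = 0.183 and 0.354, adjusted p = 0.366 and 0.781). With CD36 it had an r of 0.481 (permutation p = 0.022, adjusted p = 0.0659), a rho of 0.183 (adjusted p = 0.781) and an r of -0.0137 once its 2 farthest arrays were left out, so that the value rests on those arrays. For block 20 r was 0.065 with PPARG and 0.114 with CD36 (adjusted permutation p = 0.767 for both).

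Among the other named genes with at least 20 shared arrays (6180), those whose ratios were most like PPARG were DGAT2, which makes the last step of triglyceride synthesis (r = 0.777 over 24 arrays), ATP2C1, a calcium and manganese pump of the Golgi (0.76), and PCDHGC3, a protocadherin (0.735). CD36 stood at rank 12 on that list, and PPARG at rank 65 on that of CD36. DGAT2 was at -0.16 at 5 wk and 0.98 at 9 wk, and it was 1.26-fold higher in HG over all ages (log2 0.33, adjusted p = 0.0012). Most like CD36 were CDH5, the cadherin of endothelial junctions (0.905), the semaphorin SEMA6D (0.869) and VWA5A1 (0.839). All 3 were low on replicate 1 of 5 wk, at -1.74, -1.68 and -4.37 beside -2.02 for CD36. Without that array the r values were 0.795, 0.721 and 0.513. For the mean of the CEBPA spots they were ATL1, a shaper of the endoplasmic reticulum (0.834), the glycosyltransferase MGAT3 (0.789) and the glutathione transferase GSTT1 (0.784), with CD36 at rank 220 and PPARG at rank 914. Those values are descriptions over the same 24 arrays, and all genes on an array share its birds, dyes and centring.

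Genes around the members were taken from lists and followed at gene level, where 126 of 6184 genes passed for the genotype effect (2.04%) and 2 for the interaction (0.0323%), and where the median gene was at 0.015. Of the PPAR and C/EBP families and their partners, 12 of 20 listed genes were measured, with a median of 0.04 and 0 called. RXRA and RXRG, which pair with PPARG, were at 0.10 and 0.06 (adjusted p = 0.909 and 0.63). CEBPB, which acts ahead of PPARG and CEBPA in differentiation, was at -0.001 (adjusted p = 0.997). The largest values of this list were 0.16 for the acetyltransferase EP300 and 0.15 for CEBPG (adjusted p = 0.519 and 0.617).

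Of the other activators of adipogenesis 8 of 22 were measured, with a median of 0.06 and 1 called. This was EBF2, a transcription factor that acts with PPARG in fat cells, at 0.18 (SE 0.05, adjusted p = 0.0448, higher in HG on 17 of 24 arrays), and it passed in 5 of the 24 fits that left out 1 array. It did not pass with the replicate block (adjusted p = 0.0687), without the dye coefficient (0.0922), without centring (0.081), with scaled arrays (0.0594) or without the arrays of any 1 age other than 5 wk (0.0897 to 0.25). SREBF1, the regulator of lipogenic genes, was at 0.07 (adjusted p = 0.475). Of the repressors 13 of 26 were measured, with a median of 0.01 and 0 called. The lowest were ID3, an inhibitor of helix-loop-helix factors, at -0.32, and TCF7L2, an effector of Wnt signalling, at -0.26 (adjusted p = 0.154 for both). DLK1, the surface protein of preadipocytes, was at 0.09 (adjusted p = 0.89). At 1 wk the median of the repressors was -0.34, with 10 of 13 genes lower in HG, and at the other ages it lay between -0.03 and 0.09. Taken array by array with the dye coefficient removed, it was -0.175, -0.459, -0.195 and -0.137 on replicates 1 to 4 of 1 wk. The low median at 1 wk was not tested, and at that age genotype, housing and feed form cannot be told apart.

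**Figure D5:**
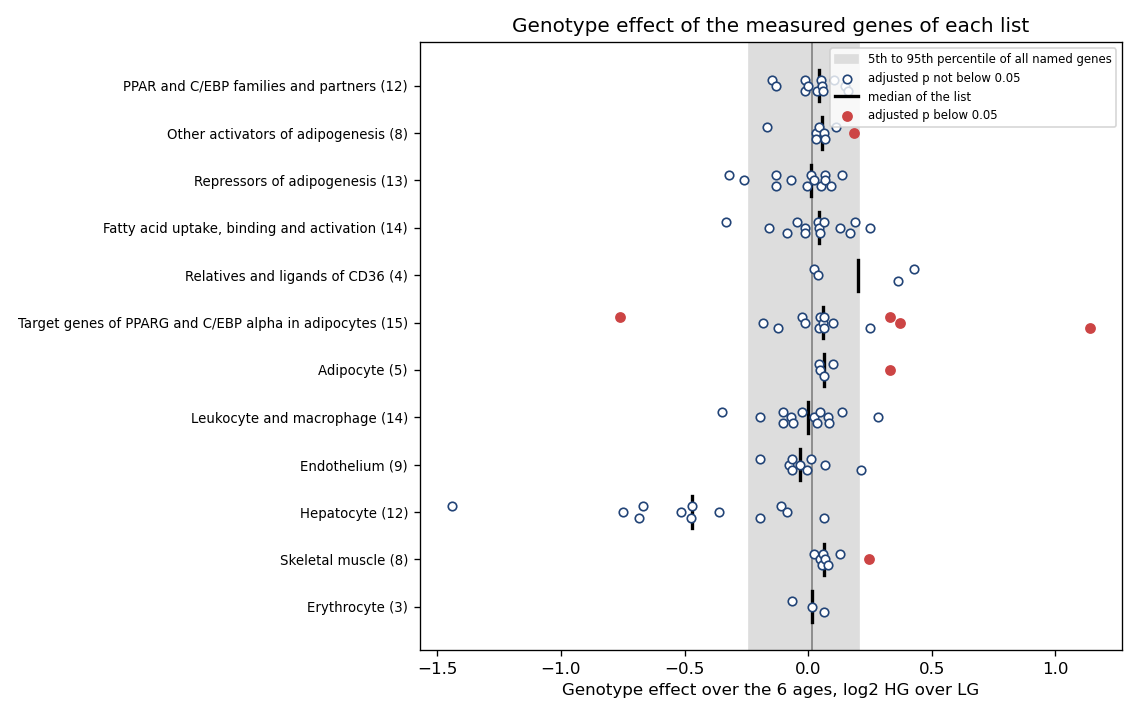
Genotype effect over the 6 ages in log2 HG over LG (x axis) for the measured genes of each list (rows, number measured in brackets), with filled points for an adjusted p below 0.05, a black bar at the median of the list, a grey line at the median of all named genes and a grey band from their 5th to their 95th percentile. Most lists are centred near the grey line, and the hepatocyte markers have a median of -0.47.

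Of the genes for fatty acid uptake, binding and activation around CD36, 14 of 25 were measured, 8 above and 6 below 0, with a median of 0.04 and 0 called. The transport proteins SLC27A1 and SLC27A4 were at -0.01 and -0.01 (adjusted p = 0.973 and 0.96), and the binding protein of fat cells, FABP4, was at 0.05 (adjusted p = 0.902). The extremes were FABP1, the liver form, at -0.33 (SE 0.43, adjusted p = 0.803) and ACSL1, which activates fatty acids to acyl-CoA, at 0.25 (SE 0.14, adjusted p = 0.519). Of the relatives and ligands of CD36 4 of 6 were measured, with a median of 0.20 and 0 called: the thrombospondin THBS2 was at 0.36 and the collagen chain COL1A2 at 0.43 (adjusted p = 0.415 and 0.283).

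Genes known in mammals as targets of PPARG or C/EBP alpha in adipocytes numbered 15 measured of 24, with a median of 0.06, 3 called higher and 1 called lower in HG. Higher were SCD, DGAT2 (0.33) and the fatty acid synthase FASN (0.37, higher on 21 of 24 arrays, adjusted p = 0.000712). SCD had already served as the check of the sign of the ratios, so its direction is not a separate result. The list was chosen with earlier results of these data known, and the study reports all of these as higher in HG from its microarrays. The calls of DGAT2 and FASN are therefore not independent of that report. Lower was PNPLA2, the lipase that starts triglyceride breakdown (-0.76, adjusted p = 0.000712, with HG above LG on 4 of 24 arrays). DGAT2 did not pass without the arrays of 7 wk (0.258, adjusted p = 0.0604) or of 9 wk (0.203, adjusted p = 0.1). The adipokine ADIPOQ was at 0.10, the lipid droplet protein PLIN1 at 0.05 and the phosphatidate phosphatase LPIN1 at 0.07 (adjusted p = 0.754, 0.825 and 0.42). By age the median of the list ran from -0.07 at 5 wk to 0.18 at 9 wk. At 1, 3, 7 and 11 wk it was 0.02, 0.10, 0.06 and 0.04.

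Markers of cell types could be checked only as ratios, since ratios give no level in either line. Of the adipocyte markers 5 of 8 were measured (FABP4, ADIPOQ, PLIN1, LPIN1 and DGAT2, all given above), with a median of 0.07 and only DGAT2 called. By age their median was 0.11 at 1 wk with 5 of 5 genes above 0, 0.08 at 3 wk and -0.05 at 5 wk. It was 0.10 at 7 wk with 5 of 5 genes above 0, 0.20 at 9 wk and 0.04 at 11 wk. Of the endothelial markers 9 of 11 were measured, with a median of -0.03 and 0 called, and the largest effects were those of CDH5 at 0.21 and the sialomucin EMCN at -0.20 (adjusted p = 0.452 and 0.861). Their median was -0.11 at 5 wk, 0.02 at 7 wk, where 8 of 9 genes were above 0, and -0.05 at 9 wk, where 3 of 9 were. At 1, 3 and 11 wk it was -0.01, -0.04 and -0.07. For all named genes the median by age lay between -0.0045 and 0.0316, and at 7 wk it was 0.0312.

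Of the leukocyte and macrophage markers 14 of 19 were measured, with a median of -0.002 and 0 called, led by the complement chain C1QC at -0.35 and the signalling protein HCLS1 at 0.28 (adjusted p = 0.259 and 0.301). Of the erythrocyte markers 3 of 7 were measured, with a median of 0.01 and 0 called, and the globin HBA1 was at 0.07 and the anion exchanger SLC4A1 at -0.07 (adjusted p = 0.603 and 0.478). Platelet markers, of which 0 of 5 were measured, could not be followed. Of the skeletal muscle markers 8 of 13 were measured, with a median of 0.06. By age it was -0.002 at 1 wk, 0.04 at 3 and at 5 wk, and 0.25 at 7 wk with 8 of 8 genes above 0. It was 0.12 at 9 wk and 0.11 at 11 wk, where 8 of 8 were again above 0. The calcium-binding CASQ2 was called at 0.24 (adjusted p = 0.00856), with HG higher on 13 of 24 arrays, and did not pass without the dye coefficient (adjusted p = 0.582) or without the arrays of 7 wk (0.102).

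Of the hepatocyte markers 11 of the 12 measured were lower in HG, with 0 called and a median of -0.47 that was -0.147 when each gene was taken from 1 spot. The largest effects were those of the vitamin D binding protein GC at -1.44 and prothrombin, F2, at -0.75 (adjusted p = 0.135 and 0.617), and GC passed with the replicate block (-1.56, adjusted p = 0.0459). By age the median ran from -0.88 at 5 wk to -0.07 at 9 wk. On replicates 1 to 4 of 5 wk, with the dye coefficient removed, it was -0.60, -0.19, -0.12 and -1.89. The lowest of these was replicate 4, whereas CD36 and PPARG were lowest on replicate 1. On that replicate 1 the median was -0.48 for adipocyte and -0.23 for endothelial markers, the lowest of the 4 arrays for both lists. The part of these lists in the values of PPARG, CEBPA and CD36 was not tested.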

How the data were processed

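The authors deposited log2 ratios of the 2 channels of each spotted cDNA array, per spot. Their methods describe GenePix scanning, removal of poor spots by hand and LOWESS, but array medians differed from 0, so the values were centred here on each array's median and turned to HG over LG. Values at the software's ceiling (0.475% of all) were set to missing beside the 4.38% with no ratio, and intensities were not used. The last 2 numbers of a spot identifier were swapped between annotation and values: read so, annotated spots lacked a ratio on fewer arrays than the others (0.621 against 1.84). Spots of 1 gene had a low mean r in either order, 0.0423 when swapped and 0.0081 as given. Of 10601 named spots, 10455 (98.6%) matched a current gene identifier in RefSeq.

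Spots with a ratio on 3 or more arrays at each age entered limma 3.58.1 under R 4.3.3 (6 age coefficients and 1 dye coefficient), with Benjamini-Hochberg correction over all spots and a threshold of 0.05. The script was tested on simulated data. Gene-level values are means over spots, although spots of 1 gene varied little together (median r 0.04). SD is the spread of arrays of an age with the dye coefficient removed, or of the arrays named. SE and intervals are the model's. The number of arrays with HG higher was counted before that removal. Spots of 1 gene were compared by sign flips over arrays, and relations between spots, added after the data were seen, by permutation. The members and lists were chosen with earlier results of these data known. Named were all member spots, the called genes of each list or else its 2 largest effects, and the 3 genes most like each member. Other list genes were named after their values were seen. Alternatives covered centring, scale, dye, replicate block, array weights, filters, ceiling values, arrays left out and, added later, ratios of small whole numbers.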

Additional observations from a re-analysis of the deposited data

Results flagged for a closer look

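PPARG drew attention because, before the dye coefficient was removed, every array of 5 wk lay below 0 and every array of 7 wk and of 9 wk above it. That pattern, picked after the values were seen, held for 0.0381% of the spots with every value at these ages. For PPARG it did not hold once the dye coefficient was removed, since replicate 2 of 9 wk was then at -0.049. The PPARG difference between the ages was 0.89 for 7 wk against 5 wk and 1.23 for 9 wk against 5 wk on the log2 scale (limma, adjusted p = 0.451 and 0.244). With the dye coefficient removed, 0 of the 24 sets of 4 arrays (4 spots at 6 ages) held a single array that Dixon's criterion singled out. By that criterion about 1 set in 20 would be singled out by chance. Before that removal, single arrays of CEBPA block 16 stood apart at 3 wk (0.951) and at 11 wk (0.54). So did 1 array of CEBPA block 20 at 7 wk (-0.721).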

How the results depend on the processing

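Over the alternatives the 4 tested member spots passed an adjusted p of 0.05 in limma only in the cases named here, and the cause of each was not tested. CD36 passed over the 6 ages without the arrays of 5 wk (0.382) and, of the fits without 1 array, only without replicate 1 of 5 wk, with a range of 0.19 to 0.345. PPARG passed at 9 wk only without replicate 2 of 9 wk (range 0.605 to 1.09), as did its difference between 9 and 5 wk (1.05 to 1.53). With the replicate block in place of the dye coefficient no member spot passed. The genotype effects were 0.139 for PPARG, 0.105 and -0.133 for CEBPA and 0.25 for CD36. They equal those of the main fit by construction, since these spots had a value on all 4 replicates of every age. The fit with the replicate block called 356 spots over the 6 ages and 6 for the interaction. Same-numbered arrays of different ages hold different birds and share a dye orientation. Their residuals had a mean r of -0.064, beside -0.102 for arrays of the same orientation and another number.

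CD36 at 5 wk, at -0.409 with all arrays, turned to 0.16 without replicate 1 (range -0.769 to 0.16 without 1 array). The other sign changes were those of smaller differences and trends. For PPARG at 1 wk this was so with scaled arrays (-0.0282), with array weights (-0.069), without ratios of small whole numbers (-0.014, an alternative chosen after seeing the data) and without 1 array (-0.23 to 0.147). For CEBPA block 20 it was so at 9 wk without centring (0.039) and at 11 wk without small ratios (-0.0431). The trend of CEBPA block 16 was -0.00218 per wk without centring, -0.0093 with scaled arrays, -0.00432 with weights, -0.00705 without 5 wk, -0.00409 without 7 wk and -0.00743 without 9 wk, and -0.0171 to 0.0112 without 1 array. That of CD36 was -0.00169 with scaled arrays and -0.00602 without 9 wk. Leaving out 1 array gave ranges for PPARG of -0.0133 to 0.139 at 3 wk and -0.274 to 0.0894 at 11 wk, for CEBPA block 16 of -0.15 to 0.266 at 3 wk and -0.242 to 0.15 at 11 wk, for CEBPA block 20 of -0.287 to 0.0331 at 1 wk, -0.191 to 0.0103 at 5 wk, -0.177 to 0.0371 at 9 wk and -0.0352 to 0.151 at 11 wk, and for CD36 of -0.0386 to 0.158 at 11 wk. Among list genes the sign changed for EMCN without 3 wk (0.0897, and -0.336 to 0.101 without 1 array) and for HBA1 without 1 wk (-0.00223).

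Counts over all spots moved more. Over the 6 ages 158 spots and 54 genes passed without the dye coefficient, 137 and 33 without 7 wk, 271 and 83 without 9 wk, and 206 and 60 without 11 wk. At 1 wk 2 passed without 5 wk. At 3 wk 1 passed without centring, 10 with scaled arrays, 6 with weights, 4 on spots with all 24 arrays and 4 without 5 wk. At 5 wk 181 passed with scaled arrays and 113 with weights. At 7 wk the counts were 24, 17, 20, 255 and 63 with no centring, scaled arrays, no dye coefficient, weights and spots on all arrays, and 24 and 99 without 3 and without 5 wk. A t-test of the 4 ratios of 7 wk against 0, with no dye term, was also run. It gave 812 of 16366 spots under 0.05 unadjusted and 0 adjusted (PPARG adjusted p = 0.849, CD36 0.888). The study's own t-test at 7 wk was a different one, between the genotypes on expression values of selected genes. At 9 wk 0 passed with scaled arrays. At 11 wk 4 passed with scaled arrays, 0 with weights and 9 without 1 wk. For the interaction 4 passed without centring, 4 without the dye coefficient, 6 on spots with all arrays and 1 without 11 wk. Without 1 array the counts ran from 0 to 3 at 3 wk, 13 to 77 at 5 wk, 6 to 111 at 7 wk, 12 to 47 at 9 wk, 0 to 25 at 11 wk and 0 to 9 for the interaction. With 1 spot per gene the median of the hepatocyte markers was -0.147 instead of -0.472.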
